A study of Mus musculus with 11 samples.

Results

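The genes described here are 10 genes of the unfolded protein response: Hspa5, Hsp90b1, Pdia4, Creld2, Sdf2l1, Dnajb9, Herpud1, Xbp1, Atf4 and Ddit3. They were taken by symbol from the 36788 rows of a table of liver RNA-seq values, in a choice made with earlier results of these data known, and all 10 were found and passed the filter on low values that left 12733 genes for testing. The livers came from wild-type C57BL/6 female mice aged over 12 weeks. All 11 mice had been ovariectomized, which removes the ovarian source of sex steroids, and were fed a high-fat diet. The 5 mice of the FSH group received injections of follicle-stimulating hormone, the pituitary hormone that acts on the ovary, and the 6 mice of the saline group received the vehicle. Neither group had intact ovaries or a standard diet, so the comparison is of the hormone on that shared setting. Total RNA was prepared from whole, papain-digested liver, and in such bulk samples fewer cells of a type and less RNA per cell cannot be told apart.

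Proteins that enter the endoplasmic reticulum (ER) are folded there by chaperones, and hepatocytes, which secrete most plasma proteins, carry a large ER. When unfolded protein accumulates, the sensors IRE1, PERK and ATF6 start the unfolded protein response. IRE1 splices the mRNA of Xbp1, PERK slows translation while favouring that of Atf4, and ATF6 is cleaved to release a transcription factor. XBP1, ATF4 and ATF6 then raise genes for chaperones, for the disposal of misfolded protein and, under lasting stress, Ddit3 (CHOP). Gene-level values carry neither the splicing of Xbp1 nor the translation of Atf4, so both of those steps were outside this measurement.

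The depth was 11410596 to 19909327 reads per library with FSH and 10801891 to 16077442 with saline, so that 3 reads equalled 0.151 to 0.278 CPM, the unit of the table, in which the reads of a library sum to 1000000. The fewest reads behind any value of the 10 genes were 57, for Ddit3. Hepatocyte markers summed to 90127 to 109961 CPM in the FSH livers and 83964 to 112532 CPM in the saline livers, and 2 of the 5 measured, Fgb and Hnf4a, were lower with FSH. Defining markers of pancreatic acinar cells, which are rich in ER chaperones, summed to at most 1.21 CPM in any liver, with 5 of 8 at 0 in every liver. Plasma cell markers, another secretory type, summed to 5.83 to 14.02 CPM with FSH and 7.71 to 15.6 CPM with saline, and 0 of the 4 tested passed. Kupffer cell markers summed to 93.3 to 257 CPM and 153 to 303 CPM, and stellate cell markers to 205 to 302 CPM and 241 to 340 CPM, with 0 of 6 passing in each list. All 6 Kupffer and all 6 stellate markers had log2 fold changes below 0, with medians of -0.42 and -0.27. Endothelial markers summed to 124 to 187 CPM and 150 to 175 CPM, with 1 of 6, Lyve1, lower with FSH. Of 6 genes of the circadian clock, 5 passed the test, 3 higher and 2 lower with FSH. Beside these marker and clock counts, 10.6% of all genes tested passed, 4.41% as lower and 6.19% as higher. The level of Dbp was 4.30 ± 0.66 CPM (SD, n = 6) in the saline livers and 83.0 ± 34.8 CPM (SD, n = 5) in the FSH livers. Errors below are also SDs over these 5 and 6 livers. Levels of clock genes can move with the hour of collection, and whether that hour differed between the groups was not tested. The part of these marker and clock differences in the results below was also not tested.

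Promoter sequences are shown for 5 of the 10 genes, 4 because they hold elements that the response's transcription factors are known to bind, and Sdf2l1 because it had the lowest fold change. The windows are those of RefSeq on GRCm38.p6, from 250 bases before to 50 bases after each transcript start, and all 10 genes had one. The ER stress response element (ERSE) was searched as CCAAT, then 9 bases of any kind, then CCACG, where CCAAT is bound by NF-Y and CCACG by ATF6 or XBP1. ERSE-II was searched as ATTGG, 1 base, CCACG, and the ATF4 element as TTGCATCA, each on both strands. Capitals mark the CCAAT and CCACG of each ERSE, the ERSE-II and the ATF4 element, with ATTGG and CGTGG as the reverse complements of CCAAT and CCACG, and other single copies are in lower case. In Sdf2l1, which held none of these elements, capitals mark its single copies of CCAAT and CCACG. The Hspa5 stretch, chr2:34772020-34772049 on the + strand, ends 41 bases before the RefSeq start and lies within the longer GENCODE gene model. The Creld2 stretch is chr15:88819511-88819570 (+), that of Hsp90b1 is chr10:86705529-86705660 (-), that of Herpud1 is chr8:94386309-94386393 (+) and that of Sdf2l1 is chr16:17132384-17132449 (-).
Hspa5: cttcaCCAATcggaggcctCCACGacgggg
Creld2: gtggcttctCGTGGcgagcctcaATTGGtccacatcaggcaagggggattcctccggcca
Hsp90b1: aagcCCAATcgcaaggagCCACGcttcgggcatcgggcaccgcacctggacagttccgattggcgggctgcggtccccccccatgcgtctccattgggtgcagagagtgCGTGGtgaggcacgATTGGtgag
Herpud1: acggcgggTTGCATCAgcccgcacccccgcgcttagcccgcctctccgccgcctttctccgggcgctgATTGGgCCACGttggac
Sdf2l1: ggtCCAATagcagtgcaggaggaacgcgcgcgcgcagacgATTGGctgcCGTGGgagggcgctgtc

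An ERSE was present in 3 of the 10 windows, against 0.119% of all 32851 windows of this length. Hspa5 held 1, at 65 to 47 bases before the start, and Creld2 held 1 on the other strand at 126 to 108. Hsp90b1 held 2 in opposite orientation, at 212 to 194 and 107 to 89. Herpud1 was the member with an ERSE-II, at 52 to 42 bases, which 0.0365% of all windows hold, and also with the ATF4 element, at 112 to 105 bases, which 0.895% hold. Sdf2l1, Pdia4, Dnajb9 and Atf4 held CCAAT and CCACG within their windows but not at the ERSE spacing. CCAAT alone was present in 9 of 10 windows against 37.4% of all, and CCACG alone in 8 of 10 against 32.8%, counts that include the copies inside an ERSE or ERSE-II. TGACGTGG, an 8-letter site of ATF6 and XBP1, was in 0 of the 10 windows and in 0.676% of all. The 10 genes were chosen as known genes of the response, so their shares beside those of all windows are a description and no independent test of enrichment. These matches describe letters in a window and were not measured as binding.

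**Figure D1:**
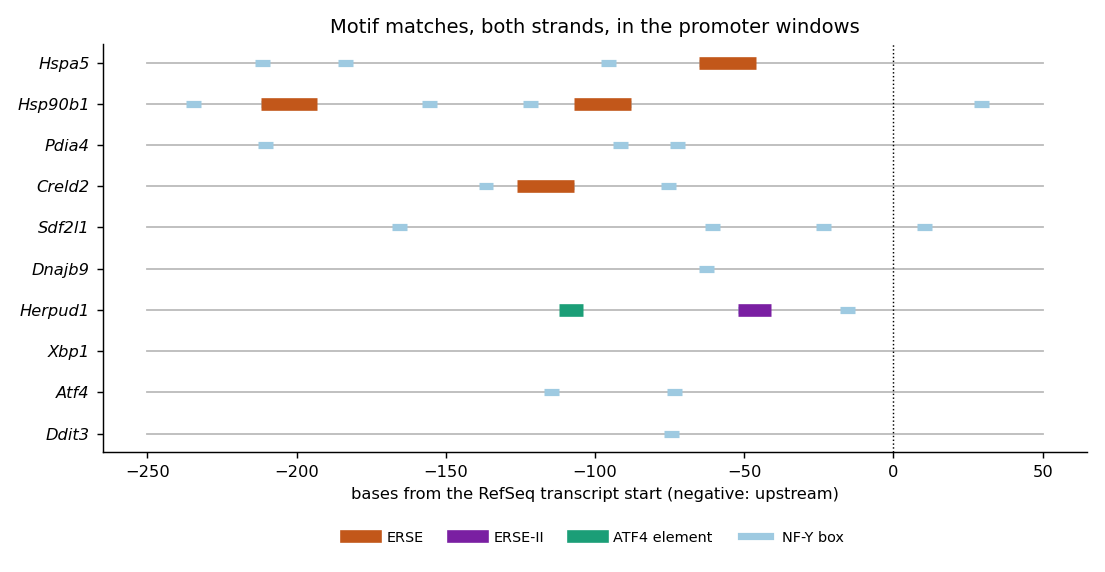
Positions of motif matches on either strand in the promoter windows of the 10 genes, with the x axis in bases from the RefSeq transcript start and one line per gene. Orange blocks are ERSE, purple is ERSE-II, green is the ATF4 element and light blue is CCAAT (the NF-Y box). ERSE blocks appear in Hspa5, Creld2 and Hsp90b1, and Herpud1 is the line with an ERSE-II and an ATF4 element.

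The question the comparison addresses is how FSH changes liver expression when the ovaries are absent. For these genes, 6 of 10 were lower with FSH at a limma adjusted p under 0.05 (Hspa5, Pdia4, Creld2, Sdf2l1, Herpud1 and Ddit3) and 0 were higher, while 4 did not pass (Hsp90b1, Dnajb9, Xbp1 and Atf4). Among all genes tested, 10.6% passed in either direction, 4.41% as lower and 6.19% as higher. The median log2 fold change of the 10 genes was -0.55, beside 0.02 over all genes tested, and 9 of the 10 values were below 0. In 5 of the 10 genes every FSH liver was below every saline liver, as in 2.72% of all genes tested. By the added requirement of a log2 fold change below -1, 2 of the 10 (Creld2 and Sdf2l1) passed, against 0.942% of all genes tested, with Hspa5 just outside at -0.99. Summed over the 10 genes, the livers had 1728 ± 136 CPM with FSH (SD, n = 5, range 1585 to 1900) and 2597 ± 514 CPM with saline (SD, n = 6, range 1940 to 3429), 0.173% and 0.260% of the library.

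**Figure D2:**
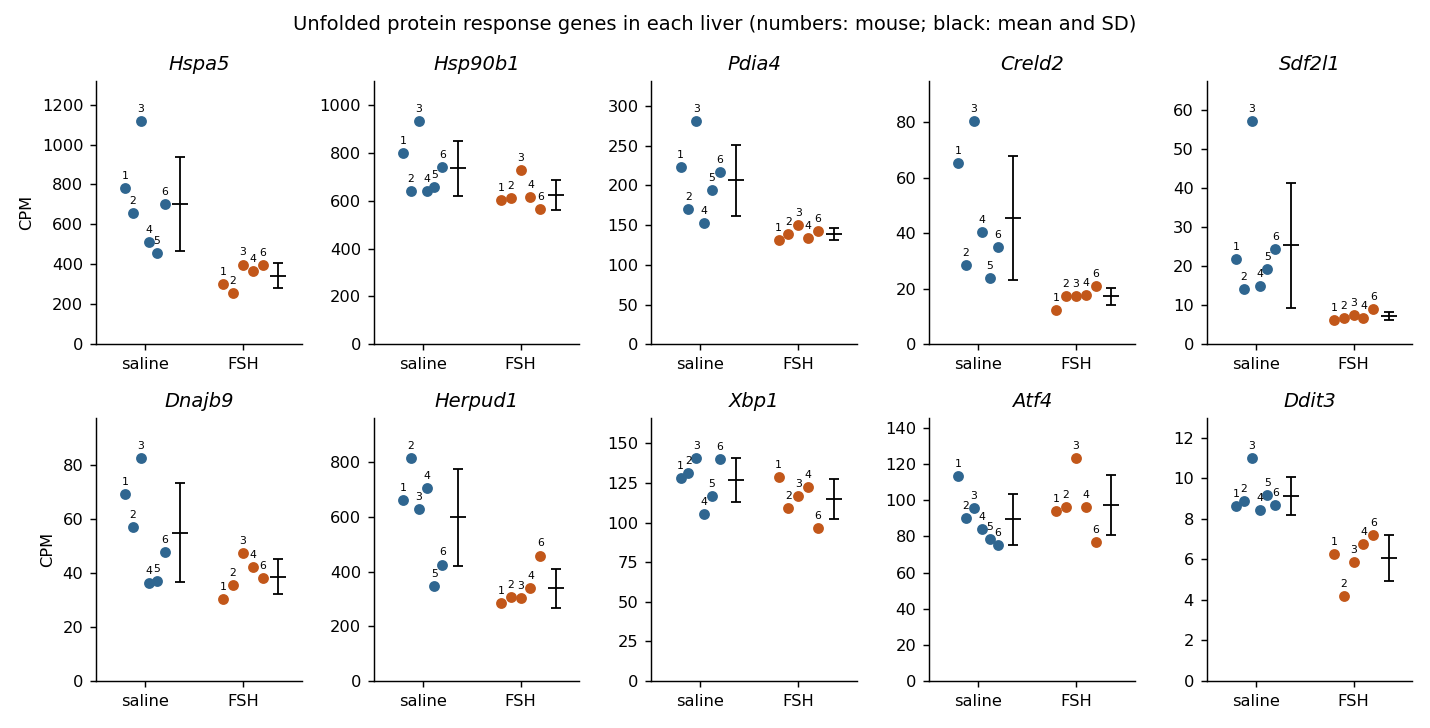
CPM of each of the 10 genes in every liver, one panel per gene with the y axis from 0, blue points for the 6 saline mice and orange points for the 5 FSH mice, numbered by mouse, and black marks for the group mean and SD. The groups do not overlap for Hspa5, Pdia4, Creld2, Sdf2l1 and Ddit3, and saline mouse 3 is the highest liver for 8 of the 10 genes.

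Hspa5 (GRCm38 chr2:34771970-34777547, + strand) encodes BiP, the main ER chaperone of the Hsp70 family, which also holds the sensors inactive. The FSH livers of mice 1, 2, 3, 4 and 6 had 300.4, 259, 399, 366 and 396 CPM, and the FSH values of the other genes follow in the same order. The saline livers ran from 456 CPM (mouse 5) through a median of 679 CPM to 1117 CPM (mouse 3). The highest FSH liver was below the lowest saline liver. The mean was 344 ± 62.1 CPM with FSH and 704 ± 236 CPM with saline, 2.05 times as high, a log2 fold change of -0.99 (SE 0.19, adjusted p = 0.00455). Without saline mouse 3 the log2 fold change was -0.84 (adjusted p = 0.00561).

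Sdf2l1 (chr16:17130138-17132383, - strand), an ER protein that works with BiP and its J-domain partners, had the lowest log2 fold change of the 10 genes. It had 6.18, 6.71, 7.42, 6.72 and 9.03 CPM in the FSH livers. In the saline livers it ran from 14.3 CPM (mouse 2) through a median of 20.5 CPM to 57.1 CPM (mouse 3). The groups did not overlap, and the FSH livers lay within a narrow band while 1 saline liver stood far above the other 5. Means were 7.21 ± 1.11 CPM with FSH and 25.3 ± 16.1 CPM with saline, a ratio of 3.51 and a log2 fold change of -1.58 (SE 0.27, adjusted p = 0.0019). Leaving out saline mouse 3 gave -1.31. Sdf2, its paralog, chosen here after its values were seen, had 33.4 ± 3.04 CPM and 33.4 ± 2.96 CPM (adjusted p = 0.99).

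Creld2 (chr15:88819646-88826683, + strand) encodes a secreted and ER-resident protein with disulfide isomerase activity. Its FSH livers had 12.4, 17.3, 17.4, 17.8 and 20.9 CPM. Its saline livers ran from 24.0 CPM (mouse 5) through a median of 37.7 CPM to 80.3 CPM (mouse 3), with mouse 1 next at 65.3 CPM. No FSH liver reached the lowest saline liver. The saline mean of 45.6 ± 22.3 CPM was 2.65 times the FSH mean of 17.2 ± 3.06 CPM, a log2 fold change of -1.27 (SE 0.26, adjusted p = 0.00621), and -1.08 without saline mouse 3.

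Pdia4 (chr6:47796141-47813430, - strand) encodes a protein disulfide isomerase of the ER, which forms and rearranges disulfide bonds in folding proteins. Its FSH livers lay close together, at 131, 138, 150.1, 134 and 143 CPM. The saline livers ran from 153 CPM (mouse 4) through a median of 206 CPM to 281 CPM (mouse 3). The groups were separated by a small gap, between 150.1 and 153 CPM. The log2 fold change was -0.54 (SE 0.13, adjusted p = 0.0146), and -0.44 without saline mouse 3 (adjusted p = 0.0215).

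Hsp90b1 (chr10:86690209-86705509, - strand) encodes GRP94, the Hsp90 of the ER. The FSH livers had 604, 611, 729.8, 616 and 565 CPM, and the saline livers ran from 641 CPM through a median of 699.8 CPM to 933 CPM. FSH mouse 3 lay above 3 of the 6 saline livers, so the groups overlapped. The log2 fold change of -0.23 did not pass (95% interval -0.46 to 0.01, adjusted p = 0.21). Hsp90b1 held 2 ERSE in its window, and Hspa5 and Creld2 held 1 each. Any relation between the number of ERSE and the fold change was not tested.

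Dnajb9 (chr12:44205559-44210326, - strand) encodes ERdj4, a J-domain partner of BiP. It had 30.2, 35.3, 47.2, 42.1 and 37.9 CPM with FSH, and from 36.1 CPM through a median of 52.4 CPM to 82.5 CPM with saline. Saline mice 4 and 5, at 36.1 and 36.8 CPM, lay among the FSH livers. The log2 fold change of -0.45 did not pass over all genes (95% interval -0.87 to -0.03, adjusted p = 0.161).

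Herpud1 (chr8:94386438-94395377, + strand) encodes an ER membrane protein of the ER-associated degradation machinery, which carries misfolded proteins to the proteasome. Its FSH livers had 284, 309, 303, 339 and 459 CPM. The saline livers ran from 348 CPM (mouse 5) through a median of 646 CPM to 816 CPM (mouse 2). Unlike the other 5 genes that passed, Herpud1 overlapped between groups: FSH mouse 6 was above saline mice 5 and 6 (426 CPM), and its highest liver was not saline mouse 3. The mean of 339 ± 70.1 CPM with FSH against 598 ± 177 CPM with saline gave a log2 fold change of -0.78 (SE 0.20, adjusted p = 0.0208). This call was lost without FSH mouse 1 (adjusted p = 0.063) or FSH mouse 3 (adjusted p = 0.0551). Herpud2, its paralog, also chosen after its values were seen, had 25.1 ± 1.46 CPM with FSH and 24.2 ± 4.11 CPM with saline (adjusted p = 0.769).

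Ddit3 (chr10:127290774-127296288, + strand) encodes CHOP, a transcription factor induced late in the response and linked to cell death. It had 6.28, 4.20, 5.89, 6.78 and 7.19 CPM in the FSH livers. The saline livers ran from 8.45 CPM (mouse 4) through a median of 8.79 CPM to 11.02 CPM (mouse 3). The groups did not overlap, and 5 of the 6 saline livers lay between 8.45 and 9.17 CPM. The log2 fold change was -0.57 (SE 0.13, adjusted p = 0.0122), and -0.52 without saline mouse 3 (adjusted p = 0.0303). GENCODE M21 has a second gene model named Ddit3 within this one on the same strand. The deposited values hold no row for that second model, and how reads shared with it were counted is not given in the sources used here. Ddit3 also overlaps Mars and Gm4189 on the other strand, and the library kit does not mark strand. Mars had 43.3 ± 5.30 CPM with FSH and 51.6 ± 3.23 CPM with saline (log2 fold change -0.26, adjusted p = 0.0908). Gm4189 was at most 0.304 CPM in any liver, and what share of the Ddit3 reads they gave was not tested.

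Xbp1 (chr11:5520659-5525893, + strand) and Atf4 (chr15:80255184-80257541, + strand) encode the transcription factors of the IRE1 and PERK arms. Xbp1 had 129, 109, 117, 123 and 96.5 CPM with FSH and from 105 CPM through a median of 129.8 CPM to 141 CPM with saline. Its log2 fold change was -0.15 (95% interval -0.36 to 0.06, adjusted p = 0.398). Atf4 had 93.9, 96.0, 123, 96.2 and 76.8 CPM with FSH and from 75.0 CPM through a median of 87.1 CPM to 113 CPM with saline. Its log2 fold change, the single value above 0 among the 10 genes, was 0.12 (95% interval -0.15 to 0.38, adjusted p = 0.612). For both genes the groups overlapped across most of their range.

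**Figure D3:**
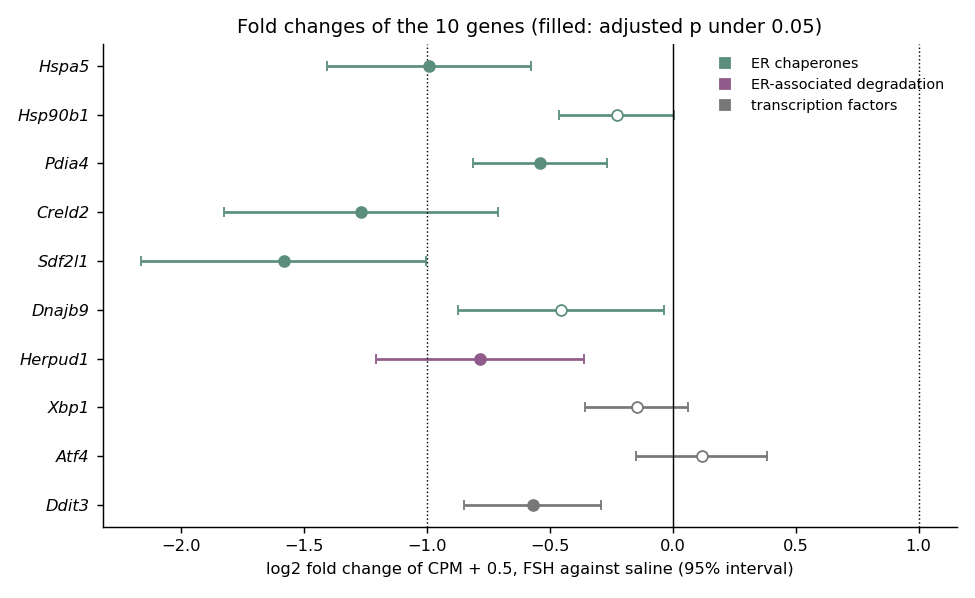
Log2 fold change of CPM + 0.5 with its 95% interval for each of the 10 genes, FSH against saline, coloured by role. Filled points have an adjusted p under 0.05 and dotted lines mark log2 fold changes of -1 and 1. Creld2 and Sdf2l1 lie beyond -1, Hspa5 lies at -0.99, and the intervals of Hsp90b1, Xbp1 and Atf4 include 0.

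The exact permutation test over the 462 splits of 11 livers into 5 and 6, two-sided, gave p = 0.00216 for Sdf2l1 and Ddit3, the smallest it can give, 0.00433 for Hspa5 and Creld2, 0.00649 for Pdia4 and 0.0173 for Herpud1. After adjustment over all 12733 genes these became 0.0506 for Sdf2l1 and Ddit3, 0.0634 for Hspa5 and Creld2, 0.0757 for Pdia4 and 0.12 for Herpud1, so that 0 of the 10 passed 0.05 by this test. No gene in the table could pass it, since the smallest exact p becomes 0.0506, and 0% of all genes tested did. At an unadjusted exact p under 0.05 the 6 genes that limma called passed, 6 of 10 beside 23.9% of all genes tested.

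The coefficient of variation between livers was larger with saline for 8 of the 10 genes, a count not set here beside all genes tested. Among them were Sdf2l1 (63.5% against 15.4%), Creld2 (49.0% against 17.8%), Pdia4 (22.0% against 5.38%) and Xbp1, nearly equal at 10.97% against 10.86%. It was larger with FSH for Ddit3 and Atf4. Without saline mouse 3 it was still larger with saline for 8 of the 10. In that count Hsp90b1 (10.28% against 9.90%) and Xbp1 (10.95% against 10.86%) were nearly equal. The saline value then became 23.1% for Sdf2l1, 21.8% in place of 33.5% for Hspa5, 10.3% in place of 15.7% for Hsp90b1 and 3.09% in place of 10.4% for Ddit3. Saline mouse 3 was the highest of all livers for 8 of the 10 genes, the exceptions being Herpud1 (saline mouse 2) and Atf4 (FSH mouse 3). Saline mouse 4 was the lowest saline liver for 5 of the genes, and FSH mouse 1 the lowest of all livers for 5. Without saline mouse 3, the same number of genes, 6 of 10, passed the test, while the calls over all genes went from 1350 to 1037. No batch is given in the labels, so within-batch values cannot be had.

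**Figure D4:**
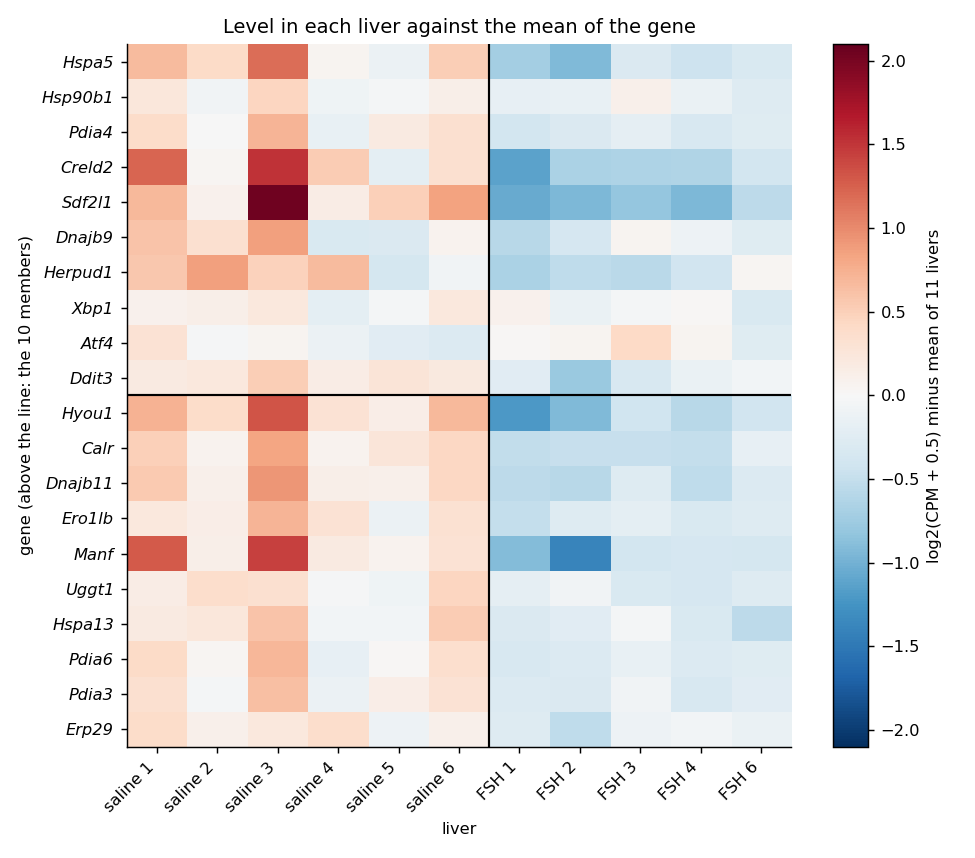
Log2(CPM + 0.5) of each gene in each of the 11 livers minus the mean of that gene, red above and blue below, with the 10 genes above the horizontal line and the 10 other ER chaperone and folding genes that passed the test below it. Saline livers are left of the vertical line. Saline mice 1 and 3 are the reddest columns for most chaperone rows, and the Xbp1 and Atf4 rows are pale throughout.

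Per kilobase of exon, the saline order by mean was Herpud1 (256 ± 75.9 CPM per kilobase), Hsp90b1 (183 ± 28.7), Hspa5 (167 ± 55.7), Pdia4 (86.0 ± 18.9), Xbp1 (39.1 ± 4.29), Atf4 (37.9 ± 5.89), Creld2 (33.4 ± 16.3), Sdf2l1 (22.8 ± 14.5), Dnajb9 (21.5 ± 7.23) and Ddit3 (5.34 ± 0.56), each as mean ± SD over 6 livers. Of the neighbours in this order, Hspa5 and Pdia4, Pdia4 and Xbp1, and Dnajb9 and Ddit3 differed by more than the larger SD of the pair, and the other neighbours did not. With FSH, Hsp90b1 had the highest mean at 155 ± 15.4 CPM per kilobase, above Herpud1 at 145 ± 30.0 and Hspa5 at 81.4 ± 14.7. The means of Hsp90b1 and Herpud1 differed by less than the larger SD of the pair. Lower in the FSH order, Dnajb9 at 15.1 ± 2.55 CPM per kilobase came above Creld2 at 12.6 ± 2.24 and Sdf2l1 at 6.51 ± 1.00.

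Other genes of the response were read from hand-written lists of 112 genes, of which 109 were tested. In them 24 genes were lower and 2 higher with FSH, 26 of 109 or 23.9%, beside the 10.6% of all genes tested, and the median log2 fold change was -0.12. Without FSH mouse 1 the 26 became 16, when the calls over all genes also went from 1350 to 803.

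Other ER chaperones and folding enzymes had the highest share of calls of the 5 lists, with 10 of 23 or 43.5% lower, beside 4.41% lower among all genes tested, 0 higher and a median log2 fold change of -0.22. Hyou1, the ER's large Hsp110-type chaperone and exchange factor of BiP, had 51.6 ± 11.9 CPM with FSH and 130.2 ± 42.0 CPM with saline (log2 fold change -1.31, adjusted p = 0.00077). Calr, the lectin chaperone calreticulin, had 342 ± 35.97 CPM against 599 ± 127 CPM (-0.79, adjusted p = 0.00144). Dnajb11, another J-domain partner of BiP, had a log2 fold change of -0.82, and Ero1lb, an oxidase that recharges disulfide isomerases, -0.58. Of the 23, Hyou1 and Manf, an ER-stress-induced secreted factor named here after its values were seen (-1.25), passed both thresholds. By both thresholds 0.942% of all genes tested were lower. Of the 13 that did not pass, 11 had log2 fold changes below 0 and 2 above.

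Of 11 sensors and regulators, 3 were lower and 1 was higher, or 36.4% beside the 10.6% of all genes tested, with a median log2 fold change of -0.12. Nfyb, a subunit of NF-Y, the factor that binds CCAAT, was higher, at 40.8 ± 4.74 CPM against 26.8 ± 3.98 CPM (0.61, adjusted p = 0.0037). Creb3l2, a membrane-bound transcription factor of the ATF6 type, was lower at -0.62, Atf6b at -0.53 and Eif2ak3, which encodes PERK, at -0.65. The calls of Atf6b and Eif2ak3 were lost in 8 and 12 of 22 alternative settings. Of 18 genes of ER-associated degradation, 2 were lower and 0 higher, with a median of -0.04. This share of 11.1% is near the 10.6% of all genes tested that passed in either direction. As lower, 4.41% of all genes tested passed. The 2 genes were Syvn1, the ubiquitin ligase HRD1 (32.0 ± 3.71 against 57.9 ± 21.0 CPM, -0.79), and Ube2g2, a ubiquitin-conjugating enzyme of that pathway (27.6 ± 3.66 against 54.7 ± 13.3 CPM, -0.94).

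Of 26 tested targets of PERK and ATF4, 5 were lower and 1 higher, or 23.1% beside the 10.6% of all genes tested, with a median of -0.15. Trib3, a pseudokinase induced with CHOP, had 2.69 ± 0.30 CPM with FSH and 7.16 ± 3.01 CPM with saline (-1.19, adjusted p = 0.00243). Chac1, which degrades glutathione, was lower at -1.14, and Gdf15, a stress-induced hormone, at -2.29, with 8.26 to 39.4 CPM with FSH and 29.5 to 294 CPM with saline. Ppp1r15b, the constitutive subunit that directs dephosphorylation of eIF2α, was higher at 0.42. Of 31 tested genes of the secretory pathway, 4 were lower and 0 higher with a median of -0.08. This share of 12.9% is near the 10.6% of all genes tested that passed in either direction, while 4.41% passed as lower. The 4 were Spcs2 of the signal peptidase (-0.59), Sec24d of the vesicle coat (-0.57), Sec61a1 of the translocation channel (-0.33) and Srprb of the signal recognition particle receptor (-0.48). The calls of Sec61a1 and Srprb were each lost in 9 of 22 alternative settings.

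**Figure D5:**
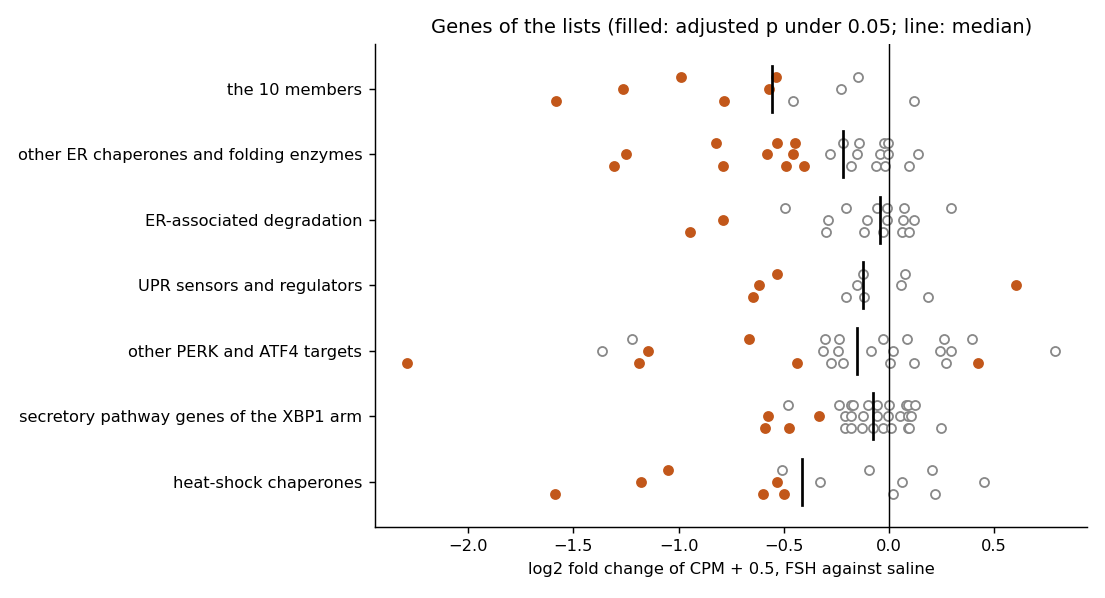
Log2 fold change of CPM + 0.5, FSH against saline, for each tested gene of the 10 members, of the 5 other lists of the response and of the heat-shock chaperones, filled where the adjusted p is under 0.05, with a black line at each list's median. The medians run from -0.55 for the 10 members to -0.04 for ER-associated degradation, and the filled points right of 0 are Nfyb and Ppp1r15b.

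Chaperones of the cytosol and mitochondria, which belong to the heat-shock response and not to the ER, gave a comparison list. Of 14 tested, 6 were lower with FSH, or 42.9% beside 4.41% lower among all genes tested, and 0 were higher, with a median log2 fold change of -0.41. Hsp90ab1, the constitutive cytosolic Hsp90, had 861 ± 114 CPM with FSH and 1303 ± 148 CPM with saline (-0.60, adjusted p = 0.00231), Hsp90aa1 had a log2 fold change of -1.05, and Hspb1, a small heat-shock protein, -1.59. The difference between ER and cytosolic chaperones was not tested.

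The genes whose pattern over the 11 livers was most like that of Hspa5 were found by the root mean square difference of log2(CPM + 0.5) after each gene was centred on its mean. Outside the lists they were Cad (0.18), which encodes the enzyme that starts pyrimidine synthesis, Leo1 (0.23) of the PAF1 transcription complex, Ddc (0.25), the aromatic amino acid decarboxylase, Stip1 (0.25), a co-chaperone of Hsp70 and Hsp90, and Rad51c (0.28), a recombination protein. Cad had 3.99 ± 0.94 CPM with FSH and 9.06 ± 2.16 CPM with saline. Among list genes the closest were Dnajb11 (0.19), Hyou1 (0.21), Syvn1 (0.23) and Calr (0.25). Of the other 9 genes described here, Dnajb9 was the closest to Hspa5 (0.31) and Atf4 the farthest (0.65).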

How the data were processed

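Total RNA from 11 livers had been sequenced as paired reads from NEBNext Ultra libraries. The submitters' processing notes name FastQC, cutadapt, Trim Galore, STAR, RSEM and build mm10, with no order. The authors deposited their values as CPM, in which each library sums to 1000000, for all 36788 rows without a filter. Use of strand in counting is not given in the sources used here, so overlapping and antisense genes can share reads. Values were whole multiples of 1 read in 100% of cases (tolerance 0.1 read), which gave reads and depth. Intervals are at the 95% level.

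The 12733 genes whose mean over the livers reached 0.5 CPM were fitted in limma 3.58.1 (R 4.3.3, eBayes with intensity trend) as log2(CPM + 0.5), with Benjamini-Hochberg adjustment over all of them. Fold changes are on that scale, which understates those of low genes. Thresholds were an adjusted p under 0.05 and, where stated, an absolute log2 fold change over 1. An exact permutation test was added. The code was tested on simulated data.

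Alternatives were pseudocounts, filters, scalings, no trend, array weights, edgeR 4.0.16 and DESeq2 1.42.0 on the recovered reads, a replicate block and leaving out each liver. Named were the 10 genes, up to 4 called genes with the smallest p from each other list of the response, 3 heat-shock chaperones and the 5 genes outside the lists nearest to Hspa5. The genes and lists were chosen with earlier results of these data known. Symbols and positions came from GENCODE M21 (GRCm38), with 1233 identifiers unmatched. Each numbered sample was taken as 1 mouse. The labels do not say so outright, and p-values measure the spread between these samples. The closest libraries of a group (FSH mice 3 and 4) differed by more than sampling noise.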

Additional observations from a re-analysis of the deposited data

Results flagged for a closer look

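Of 20 sets of livers checked, 1 for each of the 10 genes in each group, 2 held a liver far from the others, and chance flags about 1 in 20. For Ddit3, saline mouse 3 had 11.02 CPM and the next liver 9.17 CPM, a gap of 0.72 of the group's range. For Sdf2l1, saline mouse 3 had 57.1 CPM and the next liver 24.4 CPM, a gap of 0.764 of the range. Both genes kept an adjusted p under 0.05 without that liver, with log2 fold changes of -0.52 and -1.31.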

How the results depend on the processing

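In 22 alternatives, 5 or 6 of the 10 genes passed an adjusted p under 0.05, 9 of 10 stayed below 0, and no log2 fold change reversed among the 10 genes, the genes named by rule from the other lists and the 5 nearest to Hspa5. Manf, Sdf2, Herpud2 and Mars were not rerun. The single member to lose its call was Herpud1, without FSH mouse 1 or 3. Hspa5 passed the fold threshold as well under TMM or median-of-ratios scaling, edgeR, DESeq2, array weights and the replicate block, and without FSH mouse 3, 4 or 6 or saline mouse 4 or 5, which gave 3 genes past both thresholds in place of 2. Leaving out 1 liver at a time gave 16 to 27 of the other response genes in place of 26, with 16 without FSH mouse 1. Calls over all genes were 1350. Among the alternatives they were lowest without that mouse, at 803, and highest with array weights, at 1892. TMM scaling moved the median of all genes from 0.02 to -0.00. The replicate numbers in the labels were not treated as pairing the mice: residuals of mice with the same number correlated at 0.07, 0.36, 0.02, 0.14 and -0.07, and 1 of these pairs, number 2, correlated best with its own number. With the number as a block, in which saline mouse 5 has no partner and adds nothing to the fold change, 6 of the 10 genes and 27 of the other response genes passed, and 1210 of all genes. Depth limits values under 0.278 CPM, and with 11 livers the smallest p of the exact test became 0.0506 after adjustment over all genes.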
